A study of Mus musculus with 6 samples.

Results

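Skeletal muscle genes are among the tissue-restricted genes that the thymus displays to developing T cells. The 38 genes described here encode regulators of the muscle lineage, the acetylcholine receptor of the nerve-muscle synapse, and proteins of the sarcomere and of the muscle cell's calcium and energy supply. They were chosen by symbol, as genes known from skeletal muscle. No measured value enters that rule, but the list was drawn up with earlier results of these data known. All 38 were found among the 55385 genes of the deposited counts and among the 51810 genes of the deposited series table. Their RNA was measured in 6 libraries of medullary thymic epithelial cells from mice aged 4 to 5 weeks. The 3 wild-type libraries (WT) came from P53-NoCre mice, which carry no Cre and whose genotype label is P53-WT. The 3 knockout libraries (cKO) came from P53-cKO mice, in which Trp53, the gene for the transcription factor p53, is conditionally deleted. No other treatment, and no strain or sex, is named in the labels. Each library came from 75000 sorted cells of the population labelled mTEChi, that is, mature medullary cells with much class II MHC on their surface. The Cre driver is not named, and the labels state neither whether the WT mice carry the conditional Trp53 allele nor whether each library is a separate animal. The p-values therefore measure the spread between these libraries, which may be technical in part.

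Medullary thymic epithelial cells transcribe genes of many other tissues, which allows T cells that recognise those tissues to be deleted or diverted. Some of these cells take on programmes of a peripheral cell type, among them skeletal muscle, and such cells are called mimetic cells. In muscle, the basic helix-loop-helix factors MyoD, Myf5 and Myf6 bind short DNA words called E-boxes and drive the contractile genes. The muscle acetylcholine receptor is the main autoantibody target in myasthenia gravis, a disease often accompanied by thymic abnormality.

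Total counts ran from 45457892 to 50128045 per library, and a floor of 3 counts corresponded to 0.0598 to 0.0660 CPM (counts scaled to a common library total). Trp53 was at 66.7, 55.6 and 60.2 TPM (transcript counts per gene length, scaled to the same total in each library) in the WT libraries and at 4.65, 4.51 and 4.10 TPM in the cKO libraries, with a log2 fold change of −3.81 (edgeR, adjusted p = 5.76e-10). The libraries thus carried the Trp53 levels that their labels name. Genes of mature medullary epithelium were abundant in all 6 libraries, with Aire at 861, 748 and 704 TPM in WT and at 495, 705 and 680 TPM in cKO. Their whole list of 14 genes summed to between 37583 and 39992 TPM in every library. In RNA from sorted bulk cells, fewer muscle mimetic cells and less muscle RNA per cell cannot be told apart, and neither can it be seen whether the 38 genes were made in the same cells.

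All 38 genes were detected, with at least 9 counts in every library, and all 38 passed the filter on low counts. Their levels, as TPM, were unequal. Actn3, the fast-fibre alpha-actinin of the Z disc, held 42.6% of the summed TPM of the 38 genes and was 5.72 times as high as the next gene, Pvalb, on the TPM scale. It ranked 701 among the genes of the series table. The median of the 38 genes was 3.62 TPM, 34 of them had a mean of 1 TPM or more, and the lowest was the calcium release channel gene Ryr1 at 0.312 TPM, rank 29897.

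**Figure D1:**
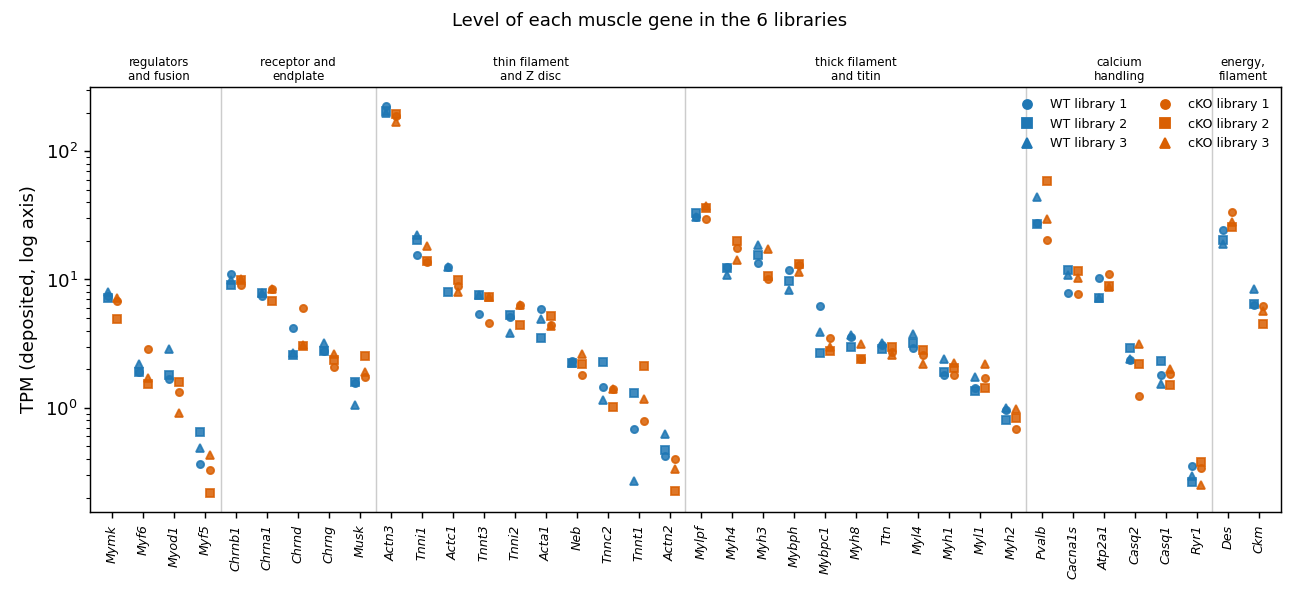
TPM (log scale) of each of the 38 genes in every library, grouped by role. WT libraries are blue and cKO libraries orange, and circles, squares and triangles are libraries 1, 2 and 3. Actn3 stands above all the others, at 169 to 223 TPM, and for most genes the WT and cKO points intermix.

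None of the 38 genes passed an adjusted p of 0.05 in the comparison of cKO with WT (edgeR quasi-likelihood test, Benjamini-Hochberg over 28543 genes). Across all genes tested 17 did, or 0.0596%, with 0.0245% higher and 0.035% lower in cKO. DESeq2 called 1 of the 38 higher, Myh4, against 0.696% of its tested genes, and limma-voom called 0. Without a filter on low counts edgeR called 2 higher, Myh4 and Des, against 0.233% of all genes. At an unadjusted p under 0.05, 9 of the 38 genes (23.7%) were counted against 8.51% of all genes. In 3 of them cKO was higher (Myh4, Des and Musk), against 4.28% of all genes, and in 6 it was lower (Actn3, Myh8, Myod1, Myl4, Ttn and Ckm), against 4.23%. The CPM of the groups did not overlap for 10 of the 38 genes (26.3%), compared with 14.4% of all genes, with cKO above WT for 4 (7.14% of all genes) and below WT for 6 (7.28%). Some of the 38 genes are neighbours on a chromosome, some share sequence with each other or reads with other genes, and all come from the same libraries, so these shares are descriptions and were given no test. The log2 fold change was below 0 for 25 of the 38 genes and above 0 for 13, compared with 51% of all genes below 0. Its median was −0.09 over the 38 genes and −0.01 over all genes tested, and its range was −0.76 to 0.81.

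**Figure D2:**
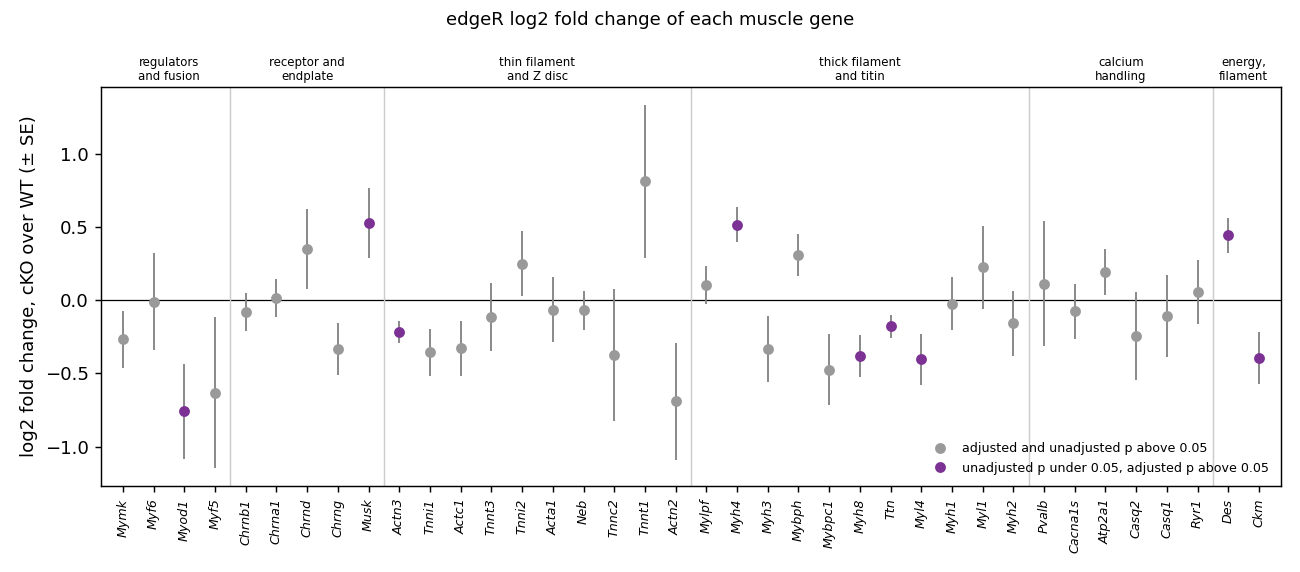
Log2 fold change of cKO over WT for each of the 38 genes, with its standard error, grouped by role. Purple marks the 9 genes with an unadjusted p under 0.05. Values run from −0.76 for Myod1 to 0.81 for Tnnt1, and none passed an adjusted p of 0.05.

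Myod1, Myf5 and Myf6 lay below the median level of the 38 genes, and Mymk above it. All 4 of these regulators of muscle identity and fusion had a log2 fold change below 0, with a median of −0.45, and none passed the test. Myod1, which encodes the master regulator MyoD, was at 1.68, 1.80 and 2.86 TPM in WT and at 1.34, 1.58 and 0.917 TPM in cKO. The groups did not overlap, on 62, 72 and 116 counts against 51, 58 and 38 counts. Its log2 fold change was −0.76 with a standard error (SE) of 0.325, and the edgeR p was 0.0365 before and 0.559 after adjustment. Myf5, an early regulator of the lineage, was at 0.363, 0.647 and 0.484 TPM in WT and at 0.328, 0.218 and 0.431 TPM in cKO, on 9 to 29 counts per library. These values overlapped, and the log2 fold change of −0.63 (SE 0.514) was little larger than its error. Myf6, a regulator of later differentiation that lies 6.72 kb from Myf5 on chromosome 10, was at 1.92, 1.91 and 2.18 TPM in WT and at 2.86, 1.52 and 1.71 TPM in cKO. Its highest and its lowest library were both cKO libraries, with a log2 fold change of −0.01 (SE 0.331). Mymk, which encodes the membrane protein myomaker needed for myoblast fusion, was at 7.40, 7.14 and 7.98 TPM in WT and at 6.84, 4.95 and 7.19 TPM in cKO. Only cKO library 2 stood well below the rest, and the log2 fold change was −0.27 (SE 0.194; edgeR adjusted p = 0.756).

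Genes of the acetylcholine receptor and of its endplate kinase showed no shared direction, with 2 of 5 below 0 and a median log2 fold change of 0.02. The adult muscle receptor is built from alpha, beta, delta and epsilon subunits, and the fetal form has gamma in place of epsilon. Chrna1 encodes the alpha subunit that holds most of the main immunogenic region recognised in myasthenia gravis. It was at 7.46, 7.85 and 7.79 TPM in WT and at 8.50, 6.79 and 8.44 TPM in cKO, with overlapping groups. The means of 7.70 ± 0.210 and 7.91 ± 0.972 TPM (SD over 3 libraries each) gave a log2 fold change of 0.02 (SE 0.132; edgeR adjusted p = 0.989). Chrng, the fetal gamma subunit, was at 2.76, 2.79 and 3.22 TPM in WT and at 2.08, 2.36 and 2.63 TPM in cKO. Every cKO library lay below every WT library, and the log2 fold change was −0.33 (SE 0.179; edgeR adjusted p = 0.658). The sequences before the RefSeq starts of these 2 genes (GRCm38.p6) are printed because they carry the E-boxes through which the regulators above are known to act on muscle genes. They are Chrna1 at chr2:73580339-73580538, minus strand, and Chrng at chr1:87205611-87205810, plus strand, each 200 bases read 5′ to 3′ up to the base before the start, with every E-box (CANNTG) in capitals.
Chrna1: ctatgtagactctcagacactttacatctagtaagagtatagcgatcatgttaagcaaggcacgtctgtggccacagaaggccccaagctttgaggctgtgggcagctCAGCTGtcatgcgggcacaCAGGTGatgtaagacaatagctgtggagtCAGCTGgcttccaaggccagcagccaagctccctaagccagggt
Chrng: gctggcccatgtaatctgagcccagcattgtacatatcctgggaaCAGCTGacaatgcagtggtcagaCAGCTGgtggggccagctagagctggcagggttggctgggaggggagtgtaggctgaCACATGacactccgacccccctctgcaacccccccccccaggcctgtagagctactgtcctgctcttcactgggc

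Both windows hold 3 E-boxes. Counted by their first base from the start, these lie at −92, −73 and −44 in Chrna1 and at −155, −132 and −75 in Chrng. Of the 3 in each gene, 2 spell CAGCTG. The Chrng gene used for the counts begins at chr1:87204657, before its RefSeq start, so the printed Chrng bases lie inside that gene.

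Chrnd, the delta subunit, ends 4.59 kb before the Chrng gene used for the counts, on chromosome 1, and is read in the same orientation. Its levels were 4.15, 2.56 and 2.66 TPM in WT and 5.98, 3.04 and 3.10 TPM in cKO. Library 1 was the highest of each group, and cKO library 1 was the highest library for Chrnd and the lowest for its neighbour Chrng. The log2 fold change of Chrnd was 0.35 (SE 0.273; edgeR adjusted p = 0.782). Chrnb1, the beta subunit, lies 192 kb from Trp53 on chromosome 11 with 24 genes between them. It was at 11.1, 9.11 and 9.93 TPM in WT and at 9.03, 9.83 and 10.1 TPM in cKO, so the groups overlapped closely, with a log2 fold change of −0.08 (SE 0.132). Musk, the receptor kinase that gathers acetylcholine receptors at the synapse and is itself an autoantigen in myasthenia gravis, was at 1.56, 1.59 and 1.04 TPM in WT and at 1.73, 2.53 and 1.9 TPM in cKO. Every cKO library was above every WT library. The log2 fold change was 0.53 (SE 0.239), with an edgeR p of 0.0459 before and 0.585 after adjustment.

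**Figure D3:**
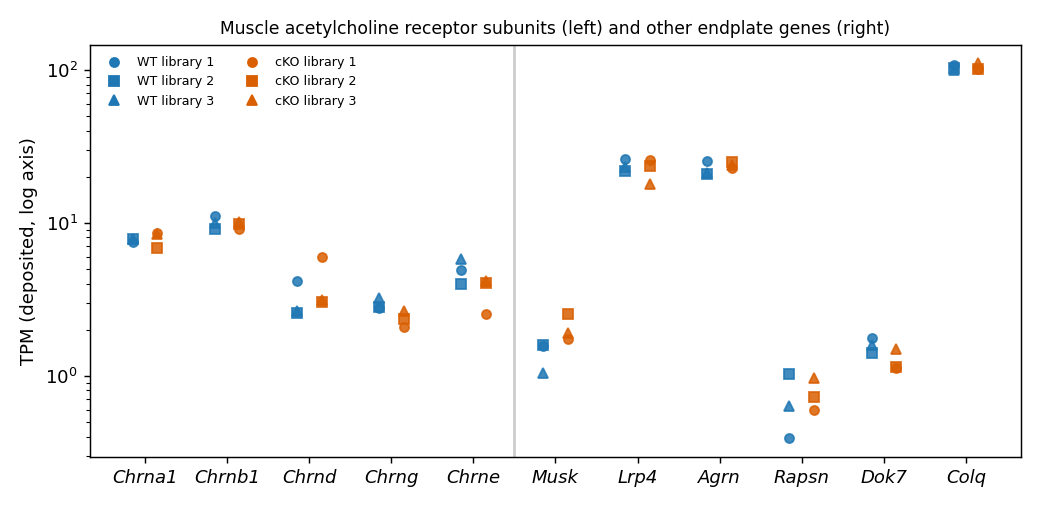
TPM (log scale) of the receptor subunits, left of the line, and of other endplate genes, right of it, in each library. WT is blue and cKO orange, with circles, squares and triangles for libraries 1, 2 and 3. Chrng lies lower and Musk higher in all cKO libraries, while Chrna1 and Chrnb1 overlap.

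Several genes that complete this synapse are not among the 38 and are given here because the endplate group was described, having been picked after their values were seen. Chrne, the adult epsilon subunit, was at 4.89, 3.99 and 5.81 TPM in WT and at 2.54, 4.04 and 4.14 TPM in cKO, a log2 fold change of −0.47 (SE 0.242; edgeR adjusted p = 0.639). The TPM ratio of fetal Chrng to adult Chrne was 0.564, 0.70 and 0.554 in WT and 0.821, 0.583 and 0.635 in cKO, with overlapping groups. Chrng was thus lower than Chrne in all 6 libraries as TPM. That scale divides Chrng by 4163 bases and Chrne by 1690 bases. As CPM, which ignores length, Chrng was the higher in every library, with means of 5.40 against 3.67 in WT and 4.29 against 2.64 in cKO. Which of the 2 RNAs was more abundant therefore depends on the gene lengths used. The partners of Musk differed widely in level, on the TPM scale. Lrp4, its co-receptor, averaged 23.5 TPM in WT and 22.3 TPM in cKO, while Rapsn, the scaffold rapsyn, averaged 0.687 and 0.765 TPM. Agrn, the nerve-derived ligand of that complex, averaged 22.4 and 23.8 TPM, and Dok7, the adaptor inside the cell, 1.58 and 1.252 TPM.

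In the thin filament and Z disc group, 8 of 10 genes had a log2 fold change below 0, with a median of −0.16. Actn3 (chr19:4861216-4877909) was at 223, 207 and 198 TPM in WT and at 186, 195 and 169 TPM in cKO. No cKO library reached the lowest WT library, and the means were 209 ± 12.8 and 183 ± 12.8 TPM. The log2 fold change of −0.21 (SE 0.0762) had the smallest SE of the 38 genes, with an edgeR p of 0.0148 before and 0.464 after adjustment. Actn2, the Z-disc actinin found in all muscle fibres and in heart, was at 0.227 to 0.628 TPM, so that the TPM ratio of Actn3 to Actn2 ran from 315 to 859 over the libraries.

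Tnni1, the slow-fibre inhibitory subunit of troponin, was at 15.4, 20.3 and 22.2 TPM in WT and at 13.8, 14.0 and 18.3 TPM in cKO. The groups overlapped, with a log2 fold change of −0.36 (SE 0.163; edgeR adjusted p = 0.587). Actc1, the cardiac actin that is also the actin of developing skeletal muscle, was at 12.6, 7.96 and 12.5 TPM in WT and at 8.83, 9.97 and 7.94 TPM in cKO. These groups overlapped too, with a log2 fold change of −0.33 (SE 0.186). Set against Acta1, the adult skeletal actin, the TPM ratio of Actc1 was 2.15, 2.27 and 2.52 in WT and 2.02, 1.92 and 1.83 in cKO. Here no cKO library reached a WT library, although each gene alone overlapped between the groups. This ratio was 1 of 11 formed after the levels had been seen, the other 10 of which overlapped between the groups, and it was given no test. The highest log2 fold change of the 38 genes belonged to Tnnt1, the slow troponin T, at 0.81 (SE 0.523), on 13 to 93 counts per library and with overlapping groups.

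Genes of the thick filament, with titin, were below 0 in 7 of 11 cases, with a median log2 fold change of −0.16. Myosin is the motor of contraction, and its heavy chains among the 38 genes come from a cluster on chromosome 11. Their genes lie 2.27 to 2.48 Mb from Trp53. Within this cluster, Myh3 encodes the embryonic chain and Myh8 the perinatal chain. Myh2, Myh1 and Myh4 encode the chains of the fast fibre types 2A, 2X and 2B. Myh4 (chr11:67238029-67260446) was at 12.6, 12.3 and 10.8 TPM in WT and at 17.6, 20.1 and 14.3 TPM in cKO. Every cKO library was above every WT library, on 1503, 1592 and 1413 counts against 2174, 2390 and 1917 counts. The means were 11.9 ± 0.979 and 17.3 ± 2.90 TPM, a 1.43-fold difference with a log2 fold change of 0.52 (SE 0.119). Its edgeR p was 0.000814 before and 0.211 after adjustment, the smallest of the 38 genes. DESeq2 gave an adjusted p of 0.0166, edgeR without a filter on low counts 0.00832 and edgeR with the replicate number as a block 0.0145. The adjusted p ranged from 0.00832 to 0.823 over the alternative fits.

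Myh8, whose gene lies 16.7 kb from Myh4, did not pass the test either. It was at 3.57, 2.98 and 3.70 TPM in WT and at 2.41, 2.41 and 3.15 TPM in cKO, where cKO library 3 reached into the WT range. The log2 fold change was −0.38 (SE 0.145), with an edgeR p of 0.0219 before adjustment. Myh3 was at 13.4, 15.4 and 18.4 TPM in WT and at 10.2, 10.7 and 17.2 TPM in cKO. Again cKO libraries 1 and 2 lay below WT and cKO library 3 did not, with a log2 fold change of −0.33 (SE 0.227; edgeR adjusted p = 0.748). Myh1 and Myh2 were lower in level, at 0.683 to 2.39 TPM, with log2 fold changes of −0.02 and −0.16.

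**Figure D4:**
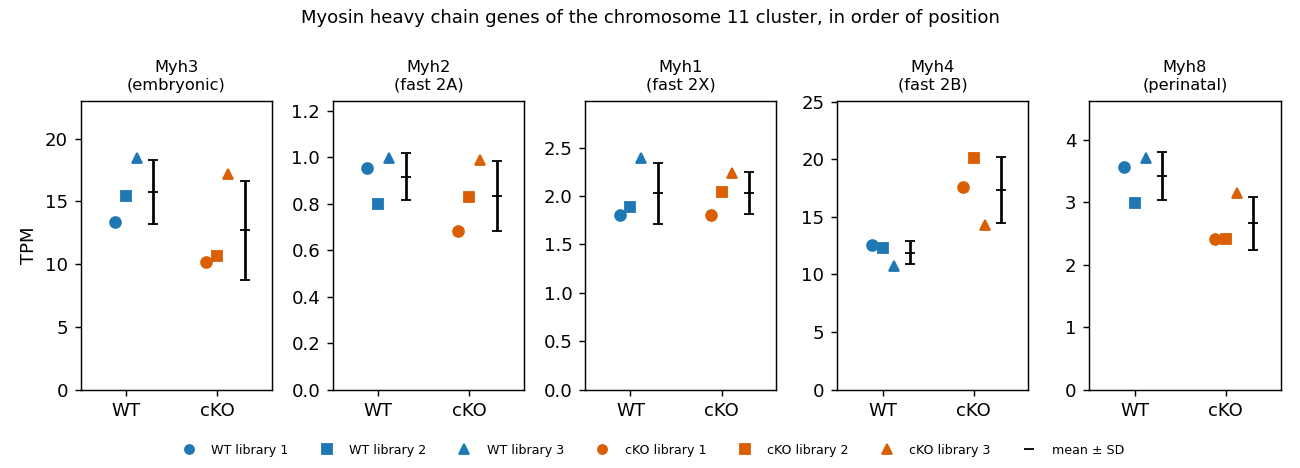
TPM of the 5 myosin heavy chain genes among the muscle genes described, in their order along chromosome 11, each panel with its own axis from 0. Circles, squares and triangles are libraries 1, 2 and 3 of WT (blue) and cKO (orange), and bars are mean ± SD. Myh4 is higher in all cKO libraries, and Myh3 and Myh8 are lower in cKO libraries 1 and 2 than in any WT library.

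Expressed as a share of the summed TPM of the 5 heavy chains, Myh4 took 39.0%, 36.9% and 29.7% in WT and 53.9%, 55.8% and 37.8% in cKO. The embryonic and perinatal chains together took 52.5%, 55.1% and 61.0% in WT and 38.5%, 36.3% and 53.7% in cKO. Both shares overlapped between the groups because of cKO library 3. Heavy chains outside the 38 genes were left out of these shares. Among them, Myh13 of the same cluster averaged 7.04 TPM over the libraries and Myh7, on chromosome 14, 1.98 TPM. The shares also depend on the gene lengths behind TPM, which were 11772 bases for Myh8 and 6016 bases for Myh4. Exact duplicates of 50-base words with other genes covered 18.9% of the Myh4 transcript words, 12.1% of Myh8, 25.4% of Myh1 and 22.9% of Myh2. Reads with several alignments were not counted, so part of each of these genes may not have contributed, depending on the read length. The read length is not given in the sources used here. The sequences before the RefSeq starts of Myh3 (chr11:67078100-67078299) and Myh4 (chr11:67237612-67237811), both on the plus strand of GRCm38.p6, are shown because they belong to the most abundant chains of the cluster, the embryonic and the 2B chain. As above, each ends at the base before the start and has its E-boxes in capitals.
Myh3: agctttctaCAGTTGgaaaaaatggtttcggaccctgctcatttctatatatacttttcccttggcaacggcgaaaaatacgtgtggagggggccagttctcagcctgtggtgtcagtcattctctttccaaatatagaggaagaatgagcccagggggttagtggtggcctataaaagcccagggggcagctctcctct
Myh4: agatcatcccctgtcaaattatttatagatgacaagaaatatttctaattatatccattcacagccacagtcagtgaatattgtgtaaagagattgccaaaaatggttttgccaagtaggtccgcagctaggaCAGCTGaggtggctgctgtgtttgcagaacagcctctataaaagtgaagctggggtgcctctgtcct

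Within the 200 printed bases each has a single E-box, at −191 in Myh3 and at −67 in Myh4, and that of Myh4 spells CAGCTG. The bases just after the RefSeq start of Myh4 were not found in its annotated transcripts (GENCODE). The counted Myh4 gene begins further on, at chr11:67238029. The windows of both genes also hold TATAAA.

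The light chains were not alike either. Mylpf, the regulatory light chain of fast fibres, was at 30.5, 33.0 and 30.8 TPM in WT and at 29.7, 35.9 and 37.5 TPM in cKO, with overlapping groups and a log2 fold change of 0.10 (SE 0.132). Myl4, the light chain of embryonic muscle and of the atrium, was at 2.90, 3.21 and 3.74 TPM in WT and at 2.57, 2.84 and 2.20 TPM in cKO. All its cKO values lay below the WT values, and the log2 fold change was −0.40 (SE 0.174), with an edgeR p of 0.0377 before and 0.561 after adjustment. Grouped by isoform after the values had been seen, the 5 genes of developing muscle (Myh3, Myh8, Myl4, Actc1 and Chrng) were all below 0 with a median log2 fold change of −0.33, none past the test. Of 12 genes of fast fibres 6 were below 0, with a median of 0.04, and of 4 genes of slow fibres 3 were below 0, with a median of −0.30. The fast group includes Mybph, Tnnc2 and Atp2a1, whose counts cannot be told apart from those of overlapping genes, as described below. Isoforms outside the 38 genes were left out of the groups, and not all of them were below 0. Tnnt2, a further troponin T gene, averaged 19.2 TPM in WT and 21.5 TPM in cKO. Its groups overlapped, with a log2 fold change of 0.15 (SE 0.105). Of the 23 other sarcomere genes tested outside the 38, 15 were below 0 and 8 above. Since these groups were formed with the values known, they are a description only. Markers of heart, which shares Actc1, Myl4, Casq2 and Actn2 with this list, were below 0 for 8 of 9 genes, with sums of 77.9 to 86.3 CPM in WT and 60.2 to 85.3 CPM in cKO, none at 0. Their part in these values was not tested.

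Mybph, a myosin-binding protein of fast fibres, was at 11.8, 9.68 and 8.25 TPM in WT and at 12.9, 13.1 and 11.5 TPM in cKO. Its log2 fold change was 0.31 (SE 0.145; edgeR adjusted p = 0.587), and its TPM overlapped by cKO library 3 alone. These values cannot be given to Mybph alone, because counting ignored strand and 49.9% of its exon bases lie in exons of Adora1. Adora1, a receptor for adenosine, had 755 to 1146 counts per library, more than Mybph in each of them. Ttn, the giant spring protein of the sarcomere, had 6563 to 8228 counts per library over its great length and a log2 fold change of −0.18 (SE 0.0794; edgeR adjusted p = 0.585). Its groups were separate as CPM and overlapped as TPM.

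Genes of excitation-contraction coupling and calcium handling were below 0 in 3 of 6 cases, with a median log2 fold change of −0.01. Pvalb, the calcium buffer of fast fibres, was at 27.5, 26.8 and 43.6 TPM in WT and at 20.2, 58.7 and 29.4 TPM in cKO. The highest and the lowest of the 6 libraries were both cKO, and the log2 fold change was 0.11 (SE 0.427). Cacna1s, the voltage sensor that couples the membrane to calcium release, was at 7.83, 11.8 and 10.8 TPM in WT and at 7.64, 11.5 and 10.3 TPM in cKO. Library 1 was the lowest of each group, and the log2 fold change was −0.08 (SE 0.186). The gene Gm37759, on the other strand, overlaps 19.98% of its exon bases. Atp2a1, the calcium pump of fast fibres, was at 10.3, 7.13 and 7.16 TPM in WT and at 11.02, 8.84 and 8.74 TPM in cKO. Its groups overlapped, with a log2 fold change of 0.20 (SE 0.158), and Rabep2 overlaps 21.9% of its exon bases.

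The remaining 2 genes were Des and Ckm, and neither passed the test. Des encodes desmin, the intermediate filament that ties muscle fibrils together and that smooth muscle and pericytes also make. Des (chr1:75360329-75368579) was at 24.5, 20.1 and 18.9 TPM in WT and at 33.7, 25.7 and 28.3 TPM in cKO. Every cKO library was above every WT library, with means of 21.2 ± 2.94 and 29.2 ± 4.06 TPM. The log2 fold change was 0.44 (SE 0.120), and the edgeR p was 0.00276 before and 0.307 after adjustment. The adjusted p from edgeR was 0.0366 without a filter on low counts and 0.0357 with the replicate number as a block. It ran up to 0.922 over the alternative fits. Of 10 genes of smooth muscle and pericytes 6 were above 0, none at 0, and their sums of 1121 to 1270 CPM in WT and 1318 to 1407 CPM in cKO did not overlap. Most of that sum was Rgs5, a pericyte gene, at 403 ± 31.9 TPM in WT and 497 ± 17.8 TPM in cKO (log2 fold change 0.28; edgeR adjusted p = 0.300). Without Rgs5 the sums of the other 9 genes overlapped, at 348 to 416 CPM in WT and 363 to 413 CPM in cKO. Acta2 and Myh11, which define smooth muscle, had log2 fold changes of −0.18 and −0.06. The part of such cells in the Des values was not tested. Ckm, the muscle creatine kinase, was at 6.24 to 8.38 TPM in all libraries but cKO libraries 2 and 3, which were at 4.5 and 5.66 TPM, and had a log2 fold change of −0.39 (SE 0.178; edgeR adjusted p = 0.586). An antisense gene, A930016O22Rik, overlaps 15.5% of its exon bases.

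Shared reads limited several of these values. Exons of 14 of the 38 genes overlap exons of another gene, and 24 do not. Subtracting every count of the overlapping partners gives the lowest number of reads a gene can have had to itself, and for 30 genes this was at least 90% of the count in every library. For Mybph, for Tnnc2, which encodes the fast troponin C, and for Atp2a1 it was 0, so their counts cannot be told apart from those of Adora1, Ube2c and Rabep2, respectively. For Cacna1s it was as low as 3.73%, with 58 to 156 unshared reads, and for Ckm as low as 27.0%. Des and Actn3 are among the genes with over 90%.

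**Figure D5:**
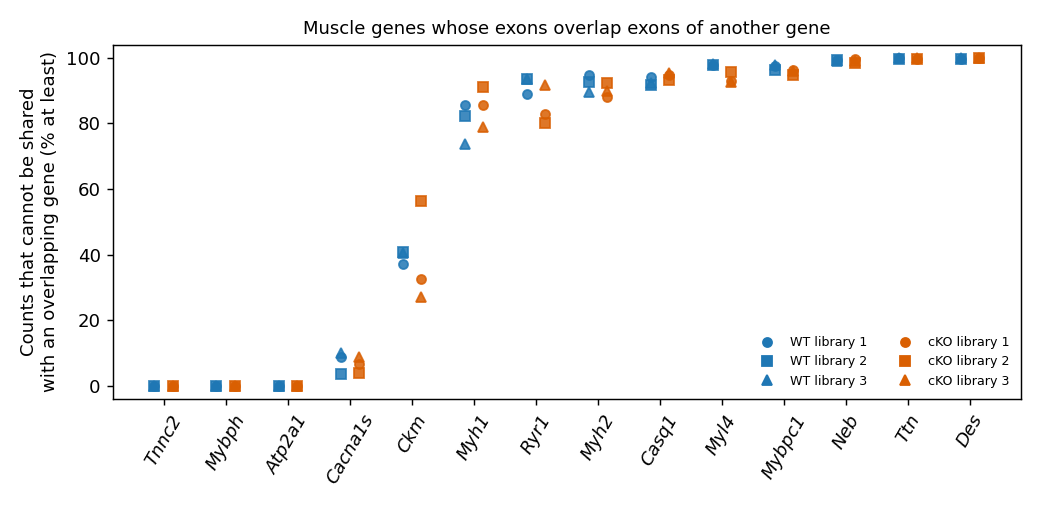
The share of each gene's counts, in percent, that cannot have been shared with an overlapping gene, for the 14 muscle genes with such an overlap. Points are libraries 1, 2 and 3 (circles, squares and triangles) of WT in blue and cKO in orange. Tnnc2, Mybph and Atp2a1 lie at 0, Cacna1s and Ckm lie low, and Neb, Ttn and Des lie near the top.

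The lowest of the 6 libraries was a cKO library for 27 of the 38 genes and a WT library for 11, and the highest was a cKO library for 16 and a WT library for 22. By library, WT libraries 1, 2 and 3 were the lowest for 1, 3 and 7 genes and the highest for 4, 5 and 13. cKO libraries 1, 2 and 3 were the lowest for 11, 10 and 6 genes and the highest for 4, 6 and 6. Among the 70 other muscle genes described below, WT libraries 1, 2 and 3 were the lowest for 14, 12 and 11. For cKO libraries 1, 2 and 3 these numbers were 18, 10 and 5. The same count over all genes was not made, and these counts were given no test. Aire, whose product drives the display of many tissue genes in these cells, was also lowest in cKO library 1, at 495 TPM, and its part in the low values of that library was not tested. The spread between libraries of a group was compared at matched level in the 30 genes with 1.09 to 38.2 CPM. Their median coefficient of variation from edgeR was 0.179, against 0.156 for all 15591 genes in that range, of which 63.4% lay below the median of the muscle genes.

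A further 70 genes with known functions in muscle were chosen and read from the same fit. Whether their RNA came from muscle mimetic cells cannot be seen in sorted bulk cells. Of the 67 that passed the filter none passed an adjusted p of 0.05 by edgeR, while the unadjusted p was under 0.05 for 6 of them (8.96%), 4 with higher and 2 with lower values in cKO. That share was near the 8.51% of all genes tested. The CPM of the groups did not overlap for 9 of the 67 with cKO above WT and for 5 with cKO below WT. Over all genes tested these shares were 7.14% and 7.28%. The median log2 fold change of the 67 genes was −0.00, with 34 below 0 and 33 above. The most abundant were Eno3, the muscle enolase, at 124 to 161 TPM, and Colq, the collagen tail of synaptic acetylcholinesterase, at 98.8 to 110.0 TPM. Msc, a repressor of muscle differentiation also known as musculin, was at 90.01 to 101 TPM, while Jph1 averaged 64.2 TPM in WT and 69.1 TPM in cKO and Srl 64.4 and 63.1 TPM.

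Mstn, which encodes myostatin, the secreted brake on muscle growth, was at 15.7, 19.2 and 18.3 TPM in WT and at 20.5, 24.6 and 30.8 TPM in cKO. Every cKO library was above every WT library, with a log2 fold change of 0.49 (SE 0.155; edgeR adjusted p = 0.409). Ldb3, a Z-disc protein, also lay above WT in each cKO library, at 5.00 to 6.18 against 3.70 to 4.82 TPM, with a log2 fold change of 0.38 (SE 0.139). Smpx, a small muscle protein, was at 1.33 to 1.75 TPM in WT and at 0.879 to 0.978 TPM in cKO, a log2 fold change of −0.72 (SE 0.286; edgeR adjusted p = 0.523).

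Of the 38 genes, 30 had a promoter in the RefSeq table, a window of 250 bases before to 50 after the start. The general E-box CANNTG was in 25 of these 30 (83.3%) and in 75% of 27025 genes with a window of that length. The form CAGCTG, which is a subset of CANNTG and is read the same on both strands, was in 15 (50%) against 18.3%, and the form CACCTG, searched on both strands, in 7 (23.3%) against 22.6%. TATAAA, also searched on both strands, was in 12 (40%) against 15.7%. The CArG box of serum response factor was in 3 (10%) against 1.81%, and the MEF2 site in 1 (3.33%) against 0.636%. A p53 half-site was found in 2 of the 30 windows (6.67%), those of Myf5 and Ryr1, against 9.55% of all genes. These matches describe letters in the windows and do not show binding.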

How the data were processed

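Polyadenylated RNA of 6 sorted mTEChi libraries was sequenced from both ends on a stranded kit, per the labels' protocols. The deposited counts are whole reads per gene, made by featureCounts 2.0.0 on the Ensembl release 99 annotation, per the file headers. Strand was ignored, mates were counted singly, reads with several alignments were not counted, and a read over several genes was counted for each, per the file headers. TopHat2 2.1.1, SAMtools 1.9, Subread 2.0.1 and build mm10 are listed, per the submitters' processing notes. The authors' deposited TPM values equalled counts divided by gene length and scaled to a common total (largest deviation 0.000834%) and were used for levels only.

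Genes kept by filterByExpr (28543) were tested on the counts with edgeR 4.0.16 in R 4.3.3 (TMM scaling, robust quasi-likelihood test, group as the only term), at a Benjamini-Hochberg adjusted p of 0.05. Fold changes are cKO over WT. Fits with DESeq2 1.42.0 and limma 3.58.1 were among 18 alternatives, with the pseudocounts 1 and 0.1 for TPM on the log2 scale. The procedure was tested on simulated data. Groups came from the genotype labels. Exon overlaps and 50-base words came from the count files' coordinates and GENCODE transcripts, and promoters from RefSeq (GRCm38.p6).

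The 38 genes and all other lists were chosen with earlier results of these data known. Values in every library are given for the 12 genes of highest TPM, the 6 of smallest p, and all regulators and endplate genes, which makes 22. Ckm, Tnnt1, Ttn, Actn2, Myh1, Myh2, Myh7, Myh13, Tnnt2 and genes outside the lists were named after their values were seen. Of the other muscle genes the rule named the 6 highest and the 4 of smallest p. A gene among these is not reported here. Counting intervals and floors cover counting error only.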

Additional observations from a re-analysis of the deposited data

How the results depend on the processing

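No result changed direction past a threshold in any of the 18 alternative fits. Of the 38 muscle genes none was called lower in cKO in any fit, 36 were called in no fit, and 26 kept the sign of their log2 fold change in all. Without a filter on low counts edgeR called 2 of them higher in cKO, Myh4 (adjusted p = 0.00832) and Des (adjusted p = 0.0366), along with 108 genes higher and 52 lower over all genes, against 7 and 10 as reported. DESeq2 called 1 (Myh4), with 137 higher and 49 lower over all genes. Over all genes, 0 higher and 6 lower were called without robust estimation, 0 and 5 by limma-voom, and 0 and 1 by limma-trend on log2(TPM) with either pseudocount. Leaving out each library in turn gave 0 to 7 genes higher and 5 to 9 lower over all genes, and 0 of the 38. The reported 7 became 1 without WT library 1, 3 without WT library 2, 0 without WT library 3 and 2 without cKO library 2, and the reported 10 became 6 without WT library 1 or 3 and 5 without cKO library 2. The median log2 fold change of the 38 genes ran from −0.16 (without cKO library 3) to −0.030 (without cKO library 1), and was −0.11 without the genes that share reads by overlap and −0.11 without those that share words with other genes, both chosen after seeing the data. The other muscle genes were called in no fit. The cause of these shifts was not tested.

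Libraries with the same replicate number had correlated deviations of 0.113, 0.0544 and 0.0755, which is not over 0.1 in every pair, so the numbers were not taken to pair the samples, although every library correlated best with its own number. With the replicate block, edgeR called 138 genes higher and 65 lower, among them 2 of the 38, Myh4 (adjusted p = 0.0145) and Des (adjusted p = 0.0357). For genes such as Myf5, with 9 to 29 counts per library, depth limits what can be seen.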
